A study of Mus musculus with 94 samples.

Results

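The clustered protocadherins of mouse are the genes Pcdha1 to Pcdhac2 (alpha), Pcdhb1 to Pcdhb22 (beta) and Pcdhga1 to Pcdhgc5 (gamma). They were taken from 4 gene-level count tables by symbol alone, with no measured value used. The tables together list 24767 genes, of which 58 are members: 14 alpha, 22 beta and 22 gamma. All samples are Tsix-stop mouse embryonic stem cells of the cross CAST/Ei x 129/Sv/Jae, differentiated as embryoid bodies after growth on embryonic fibroblast feeders. An FKBP degron sits on RAD21, a core subunit of the cohesin ring, or on WAPL, the factor that releases cohesin from DNA, and dTAG-13 at 500 nM triggers breakdown of the tagged protein. The control cells of every comparison carry the same degron and received DMSO, and cells without a degron were not used here. RAD21 degron cells received dTAG-13 or DMSO for 8 h and were collected at day 10 for RNA-seq (2 libraries with dTAG-13 and 2 with DMSO) or at day 7 for PRO-seq (also 2 and 2). WAPL degron cells received dTAG-13 or DMSO for 3 days, over days 4 to 7 (3 RNA-seq libraries with dTAG-13 and 3 with DMSO) or days 7 to 10 (2 and 2). C4 and G9 for RAD21, and H7 and H2 for WAPL, are read from the sample titles as separate lines, called clones here. H2 was measured in days 4 to 7 only, and the other WAPL libraries are replicates of H7 that no label ties to separate cultures, so a p-value may measure technical spread.

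Protocadherins of these clusters are cell-surface adhesion proteins that bind copies of themselves on a facing cell. In neurons each cell uses a small, largely random set of them, which lets its branches tell self from non-self. Each alpha or gamma member has a promoter and a large first exon of its own, spliced to short constant exons shared by the whole cluster, while each beta member is a single-exon gene. CTCF and cohesin bind at the promoters and at distant enhancers, and cohesin loop extrusion is known from neuronal cells to bring enhancer and promoter together. The last members of the alpha and gamma clusters, Pcdhac1, Pcdhac2, Pcdhgc3, Pcdhgc4 and Pcdhgc5, are called C-types, and in neurons they are used more uniformly than the others.

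The 18 libraries hold between 8413212 and 35388461 counts, so a floor of 3 counts lies between 0.0835 and 0.374 CPM (the count scaled to the library size after TMM adjustment). CPM are not divided by gene length, so they are compared between groups and not between genes. The degron acts on protein, and the transcript of its target does not check the labels. In RAD21 degron cells at day 10, Rad21 lay between 216 and 284 CPM with dTAG-13 and between 201 and 251 CPM with DMSO. In WAPL degron cells over days 4 to 7, Wapl lay between 229 and 922 CPM with dTAG-13 and between 244 and 842 CPM with DMSO. Libraries of a group differed by more than counting noise, with a chi-square of 12.2 to 54.1 per gene. This includes pairs of different clones, which are the only pairs in the RAD21 sets.

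The rows of a cluster do not measure its members separately. In the 3 RNA-seq tables, 21 of the 22 gamma members had counts within 10% of the smallest gamma count in every library. The exception was Pcdhgc3, at up to 1.48 times the smallest. Of the 14 alpha members, 11 to 13 lay within 10%, depending on the table. Gm37013, a separate entry of the tables that is no member, had counts equal or close to the smallest gamma count. In WAPL DMSO replicate 1 of H7 over days 4 to 7 it had 2910 counts, equal to that count. In DMSO of G9 at RAD21 day 10 it had 6029 counts, against 6045 for the smallest gamma count. The smallest count of a cluster is therefore treated here as the count shared by its members, and what a member has above it as its own count. In the PRO-seq table, which counts nascent RNA still attached to polymerase, the counts instead declined from the first member to the last of each cluster, and no member had more than the member before it. Pcdha1 had up to 4.53 times the smallest alpha count and Pcdhga1 up to 3.21 times the smallest gamma count. There the difference between a member and the next one is given as the segment of that member. Own counts and segments were introduced after the data had been seen. Beta members share no exon, and each is counted by itself.

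**Figure D1:**
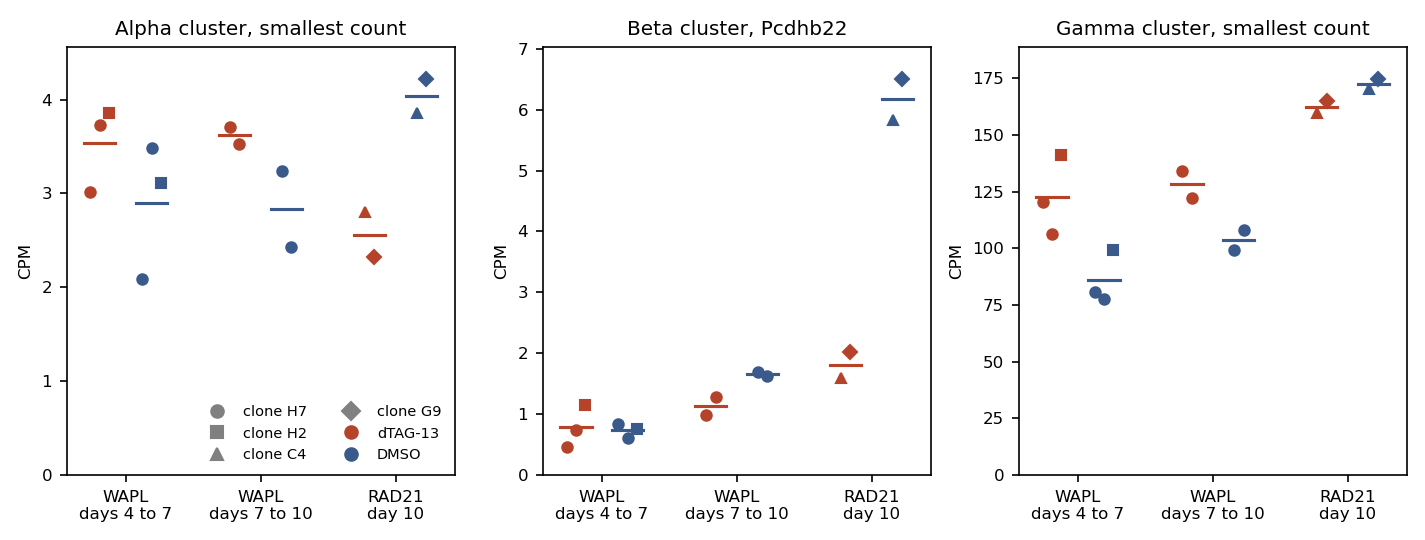
RNA-seq level in CPM of each library, with dTAG-13 in red left of DMSO in blue, for the smallest alpha count, for Pcdhb22 and for the smallest gamma count in the 3 RNA-seq comparisons. Symbols mark clones and bars the group mean. The 2 dTAG-13 libraries of RAD21 day 10 lie at 1.59 and 2.02 CPM for Pcdhb22, against 5.83 and 6.51 CPM with DMSO, while the gamma levels of these libraries differ far less.

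In RAD21 degron cells at day 10, alpha RNA and the 3 beta members with a row fell after 8 h of dTAG-13. Gamma RNA did not pass the test. The clearest member was Pcdhb22, the last beta gene. It had 1.59 CPM in C4 and 2.02 CPM in G9 with dTAG-13, against 5.83 CPM in C4 and 6.51 CPM in G9 with DMSO. Both dTAG-13 libraries lay below both DMSO libraries. The log2 fold change was -1.79 ± 0.22 (SE), and the adjusted p of edgeR's quasi-likelihood test was 2.19e-14. The fit left 1 residual degree of freedom, so that test took its spread almost wholly from all genes together. Its p-values are not comparable with those of the other comparisons. Pcdhb22 stayed under the threshold with DESeq2 (0.00025) and limma-voom (3.68e-10), but not without the clone term (0.274).

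Pcdhb20 had 0.379 CPM in C4 and 0.449 CPM in G9 with dTAG-13, against 1.22 CPM in C4 and 1.74 CPM in G9 with DMSO. Pcdhb17 had 0.606 CPM in C4 and 0.224 CPM in G9 with dTAG-13, against 1.22 CPM in C4 and 1.62 CPM in G9 with DMSO. These values rest on 3 to 16 counts per library with dTAG-13 and 29 to 60 with DMSO. The log2 fold changes were -1.79 ± 0.41 for Pcdhb20 and -1.58 ± 0.40 for Pcdhb17, with adjusted p from edgeR of 0.00018 and 0.000826. All 3 beta members with a row in this table were called lower, where 8.89% of the 14470 genes tested were called lower and 9.83% higher. The other beta members have no row here: this table has 15363 rows, against 24421 for WAPL days 4 to 7. Rows with low counts may be missing, so the 3 calls do not describe the beta cluster as a whole.

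The alpha cluster fell in the count that its members share, while own counts could be tested for Pcdha12 only. Its smallest count was 2.80 CPM in C4 and 2.32 CPM in G9 with dTAG-13, against 3.86 CPM in C4 and 4.22 CPM in G9 with DMSO, from 74 and 31 counts with dTAG-13 and 92 and 146 with DMSO. The groups did not overlap. All 14 alpha rows were called lower, with log2 fold changes between -0.70 and -0.59 and adjusted p from 0.0079 to 0.0385. Because the rows share their counts, this is one measurement, and the shared count alone gave -0.63 ± 0.22 (adjusted p from edgeR 0.0267). Pcdhac2, a C-type, had -0.64 ± 0.21, and Pcdhac1, the other, -0.63 ± 0.22. Pcdha12 had the lowest p of the cluster, with -0.70 ± 0.21, followed by Pcdha11 with -0.68 ± 0.22, while Pcdha9 had -0.65 ± 0.22. The own count of Pcdha12 was 5 and 2 with dTAG-13 in C4 and G9, against 13 and 14 with DMSO, and it did not pass (log2 fold change -1.47 ± 0.61, adjusted p from edgeR 0.0752).

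The gamma cluster as a whole changed little. Its smallest count was 160 CPM in C4 and 165 CPM in G9 with dTAG-13, against 170 CPM in C4 and 175 CPM in G9 with DMSO. The groups did not overlap, but the shared gamma count gave -0.09 ± 0.06, with a 95% interval from -0.21 to 0.03 and an adjusted p of 0.335 in edgeR. None of the 22 rows was called, and the lowest adjusted p was that of Pcdhgc3, at 0.0813 for -0.15 ± 0.06. At an unadjusted p under 0.05, 1 row passed, as did 4191 of the 14470 genes tested. DESeq2 and limma-voom called no gamma row either. The median log2 fold change was -0.63 over the alpha rows, -1.79 over the beta rows and -0.09 over the gamma rows, against 0.01 over all genes tested.

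Set against each other, the clusters gave 1.76 alpha counts per 100 gamma counts in C4 and 1.41 in G9 with dTAG-13, against 2.27 in C4 and 2.42 in G9 with DMSO. The ratio was lower with dTAG-13 in both clones. The exact two-sided permutation test over these libraries gave p = 0.333, which is the smallest value that 2 against 2 libraries allow (n = 2 each).

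Of the 18 gamma members with enough own counts to test, 7 were called lower and none higher, against 8.86% of all genes called lower and 9.65% called higher in that fit. They were Pcdhga7, Pcdhgb6, Pcdhga10, Pcdhgb7, Pcdhga11, Pcdhgb8 and Pcdhgc3, and all but Pcdhga7 and Pcdhgc3 stand next to each other in the second part of the cluster. Pcdhgc3 had the largest own count, with 50.4 CPM in C4 and 38.6 CPM in G9 with dTAG-13, against 60.7 CPM in C4 and 52.9 CPM in G9 with DMSO. Both dTAG-13 values lay below both DMSO values, and the log2 fold change was -0.35 ± 0.06 (adjusted p from edgeR 5.65e-07).

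Pcdhgb7 had own counts of 2.35 CPM in C4 and 1.58 CPM in G9 with dTAG-13, against 4.72 CPM in C4 and 4.41 CPM in G9 with DMSO. Its log2 fold change was -1.18 ± 0.23, with an adjusted p from edgeR of 5.06e-06. Pcdhga11 had 2.47 CPM in C4 and 1.58 CPM in G9 with dTAG-13, against 4.04 CPM in C4 and 3.25 CPM in G9 with DMSO, a log2 fold change of -0.83 ± 0.24. The groups were separate for both genes.

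Pcdhgb8, at -1.13 ± 0.41, rested on 16 and 4 own counts with dTAG-13, against 26 and 35 with DMSO. Pcdhgb6 gave -0.67 ± 0.19, Pcdhga7 -0.65 ± 0.23 and Pcdhga10 -0.55 ± 0.18. The C-type Pcdhgc5 was the member with the highest fold change, 0.46 ± 0.24, but did not pass (adjusted p from edgeR 0.196). The 2 clones differed for it, with 3.19 CPM with dTAG-13 against 1.60 CPM with DMSO in C4, and 2.48 CPM with dTAG-13 against 2.64 CPM with DMSO in G9.

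With the clone term, 17 members were called, against 1 with DESeq2, 6 with limma-voom and 0 without the term. Leaving out DMSO of C4 left 1 member called, and leaving out dTAG-13 of C4, DMSO of G9 or dTAG-13 of G9 left 0, with the clone term no longer possible. For own counts DESeq2 called 0, limma-voom 5, and each of these 4 omissions left 0.

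**Figure D2:**
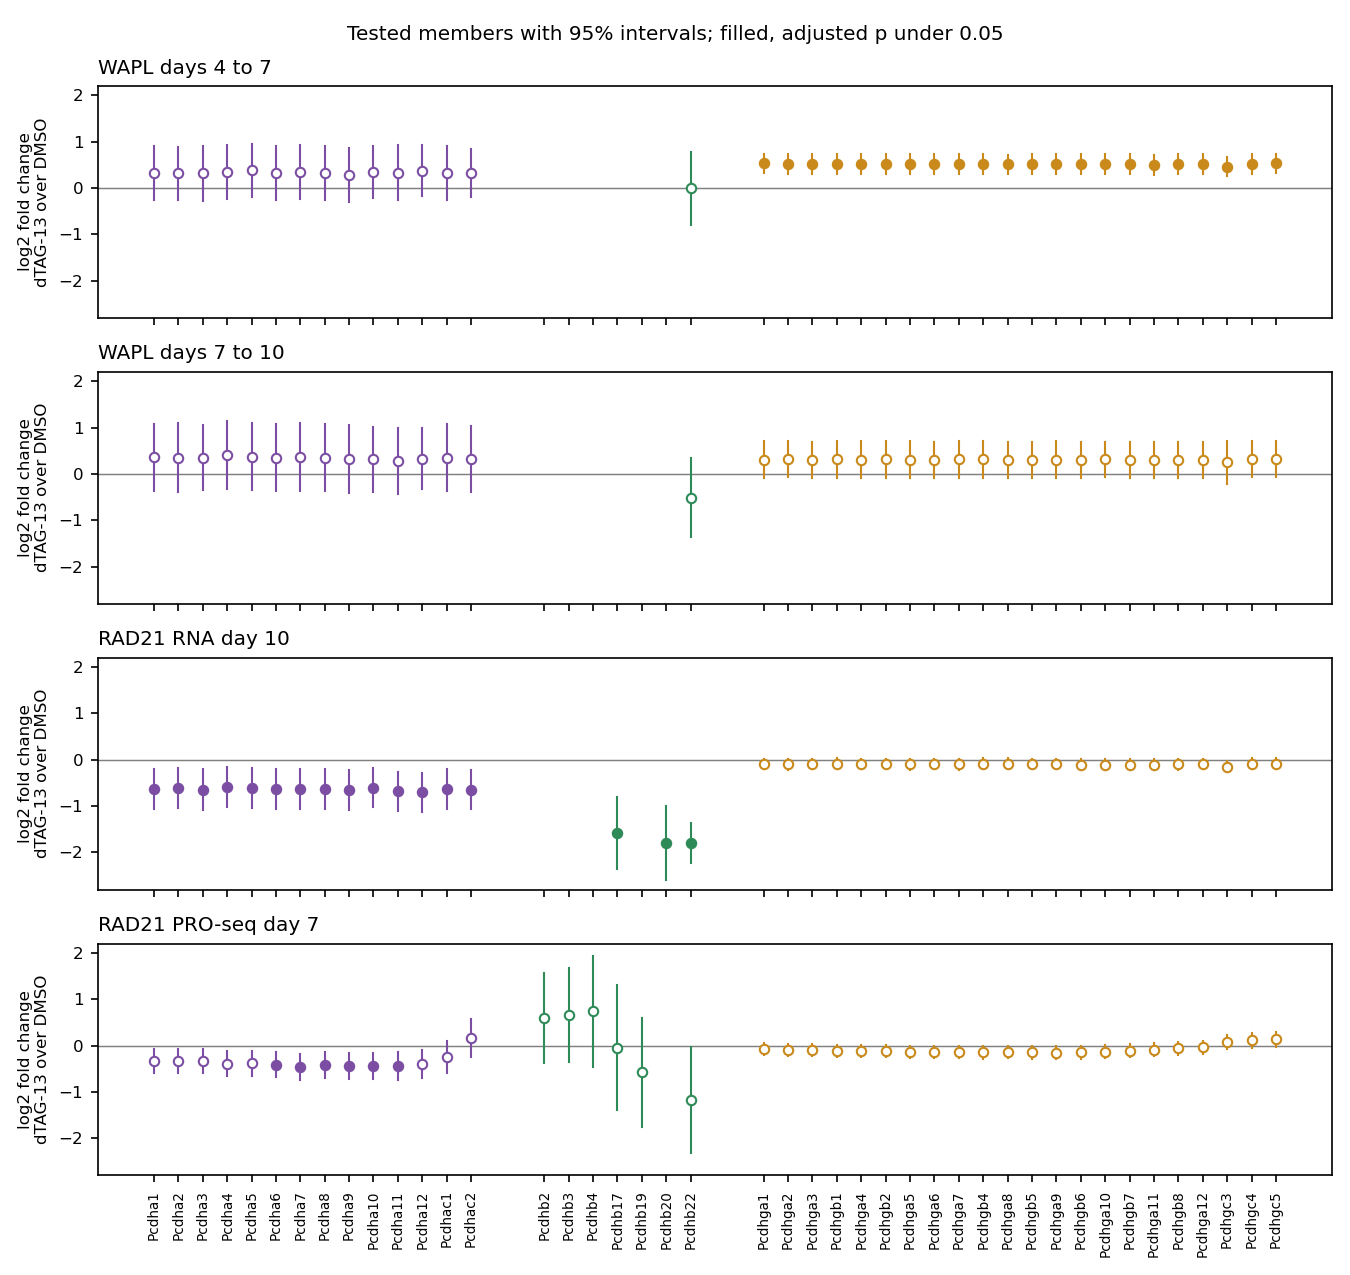
Log2 fold change, dTAG-13 over DMSO, of every tested member (x axis, in cluster order, alpha, beta, gamma from left to right) in the 4 comparisons, with 95% intervals from edgeR. Filled points have an adjusted p under 0.05, which holds for all 22 gamma members in WAPL days 4 to 7, for 14 alpha and 3 beta members in RAD21 RNA day 10 and for 6 alpha members in RAD21 PRO-seq day 7.

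PRO-seq at day 7, in other libraries of the same clones, gave nascent transcription along the clusters. Of the 14 alpha members, 6 were called lower and none higher, where 4.66% of the 16496 genes tested were called lower and 5.90% higher. These were Pcdha6 to Pcdha11, with log2 fold changes from -0.46 to -0.41. As each row is read as holding the counts of the members after it, these calls are not 6 separate measurements. None of the segments of Pcdha6 to Pcdha11 was called, and those of Pcdha6 and Pcdha8 were not tested. Pcdha7 had 13.7 CPM in C4 and 22.1 CPM in G9 with dTAG-13, against 20.2 CPM in C4 and 28.1 CPM in G9 with DMSO. The dTAG-13 value was the lower one in each clone, while across clones the groups overlapped. The log2 fold change was -0.46 ± 0.13 (adjusted p from edgeR 0.0241). Pcdha1 had -0.32 ± 0.13 (adjusted p 0.107) and Pcdha2 -0.32 ± 0.13.

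Both alpha segments that were called lie near the end of the cluster. The segment of Pcdhac1 held 2.16 CPM in C4 and 3.17 CPM in G9 with dTAG-13, against 5.26 CPM in C4 and 5.53 CPM in G9 with DMSO. The groups did not overlap, and the log2 fold change was -1.06 ± 0.27 (adjusted p from edgeR 0.00852). The segment of Pcdha12 held 1.95 CPM in C4 and 4.10 CPM in G9 with dTAG-13, against 3.94 CPM in C4 and 6.60 CPM in G9 with DMSO, with -0.84 ± 0.26 (adjusted p 0.0401).

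The segment of Pcdhac2, the last row of the cluster, was not called. It held 7.05 CPM in C4 and 8.69 CPM in G9 with dTAG-13, against 6.97 CPM in C4 and 6.88 CPM in G9 with DMSO, with a log2 fold change of 0.17 ± 0.20 and a 95% interval from -0.24 to 0.57. Of the 10 alpha segments tested, 2 were called lower and none higher, where 4.54% of all genes were called lower and 5.83% higher in that fit.

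**Figure D3:**
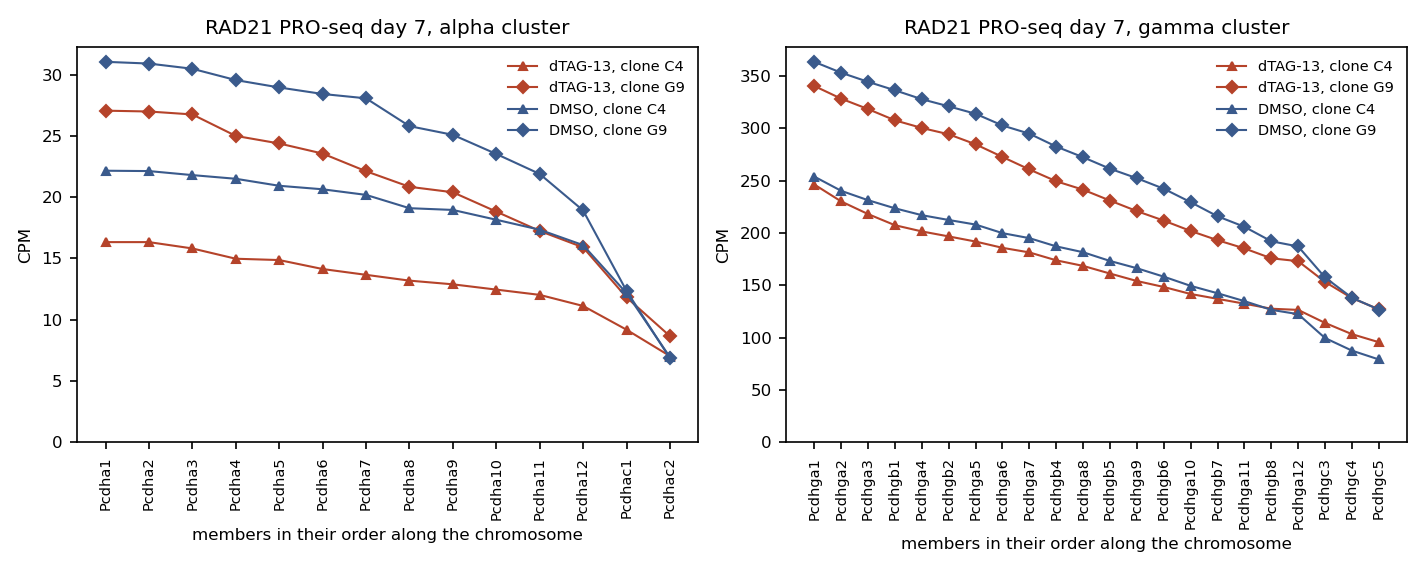
PRO-seq CPM of each alpha member (left) and gamma member (right) in cluster order at day 7, one line per library, dTAG-13 red and DMSO blue. In both clusters the lines descend from the first to the last member, and for the last alpha member, Pcdhac2, the dTAG-13 libraries lie at 7.02 and 8.65 CPM, against 6.93 and 6.85 CPM with DMSO.

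For the gamma cluster no row of 22 was called in PRO-seq, with log2 fold changes from -0.15 to 0.14 and 6 rows at an unadjusted p under 0.05. Of all 16496 genes tested, 3928 were at an unadjusted p under 0.05, and the gamma rows share counts. DESeq2 called no member at all. Pcdhga1, the first row of the cluster, had 246 CPM in C4 and 340 CPM in G9 with dTAG-13, against 254 CPM in C4 and 364 CPM in G9 with DMSO. The clones differed more than the groups, and the log2 fold change was -0.07 ± 0.06. Pcdhga9 had -0.15 ± 0.07, Pcdhgb4 -0.14 ± 0.07, Pcdhga7 -0.14 ± 0.07, Pcdhga8 -0.14 ± 0.07 and Pcdhga2 -0.08 ± 0.06. The rows of the C-types lay on the other side of 0, with 0.08 ± 0.08 for Pcdhgc3, 0.12 ± 0.08 for Pcdhgc4 and 0.14 ± 0.08 for Pcdhgc5. None passed. Each row is read as holding the counts of the members after it, so these are not separate measurements. The segments of Pcdhgc3 (-0.24 ± 0.15) and Pcdhgc4 (-0.11 ± 0.18) lay below 0 and did not pass either.

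All 22 gamma segments were tested, and 4 were called lower, those of Pcdhga10, Pcdhga11, Pcdhgb8 and Pcdhga12, and none higher, where 4.54% of all genes were called lower and 5.83% higher. The called segments were not tested against the others. The segment of Pcdhga12, the last member before the C-types, held 12.5 CPM in C4 and 19.9 CPM in G9 with dTAG-13, against 22.9 CPM in C4 and 29.8 CPM in G9 with DMSO. The groups did not overlap, and the log2 fold change was -0.73 ± 0.14 (adjusted p from edgeR 0.000429). It was also called with DESeq2 (0.0195) and limma-voom (0.000144).

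The segment of Pcdhgb8 held 1.13 CPM in C4 and 2.76 CPM in G9 with dTAG-13, against 4.14 CPM in C4 and 4.99 CPM in G9 with DMSO. Its log2 fold change was -1.36 ± 0.31 (adjusted p from edgeR 0.00416). Pcdhga11 gave -0.67 ± 0.18 and Pcdhga10 -0.61 ± 0.19. Pcdhgb7, which lies between the segments of Pcdhga10 and Pcdhga11, had -0.53 ± 0.20 and did not pass (adjusted p 0.0851).

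The segments at the start of the cluster pointed the other way without passing. Pcdhga3 had 10.7 CPM in C4 and 10.8 CPM in G9 with dTAG-13, against 7.78 CPM in C4 and 8.13 CPM in G9 with DMSO, a log2 fold change of 0.43 ± 0.18 (adjusted p from edgeR 0.125). The segment of Pcdhgc5, which is its whole count, had 0.14 ± 0.08.

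The gamma members called lower in own RNA counts at day 10 and in PRO-seq segments at day 7 overlapped in 3 genes, Pcdhga10, Pcdhga11 and Pcdhgb8, which is 3 of 7 in RNA and 3 of 4 in PRO-seq. The 2 assays used different days and share no library, but the same 2 clones. The measures are also unlike. An own count is RNA above the shared count, while a segment is the nascent signal between a member and the next. A shared name therefore need not stand for the same transcripts. The overlap was not tested, and the share of all genes called lower in both assays is not given here.

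**Figure D4:**
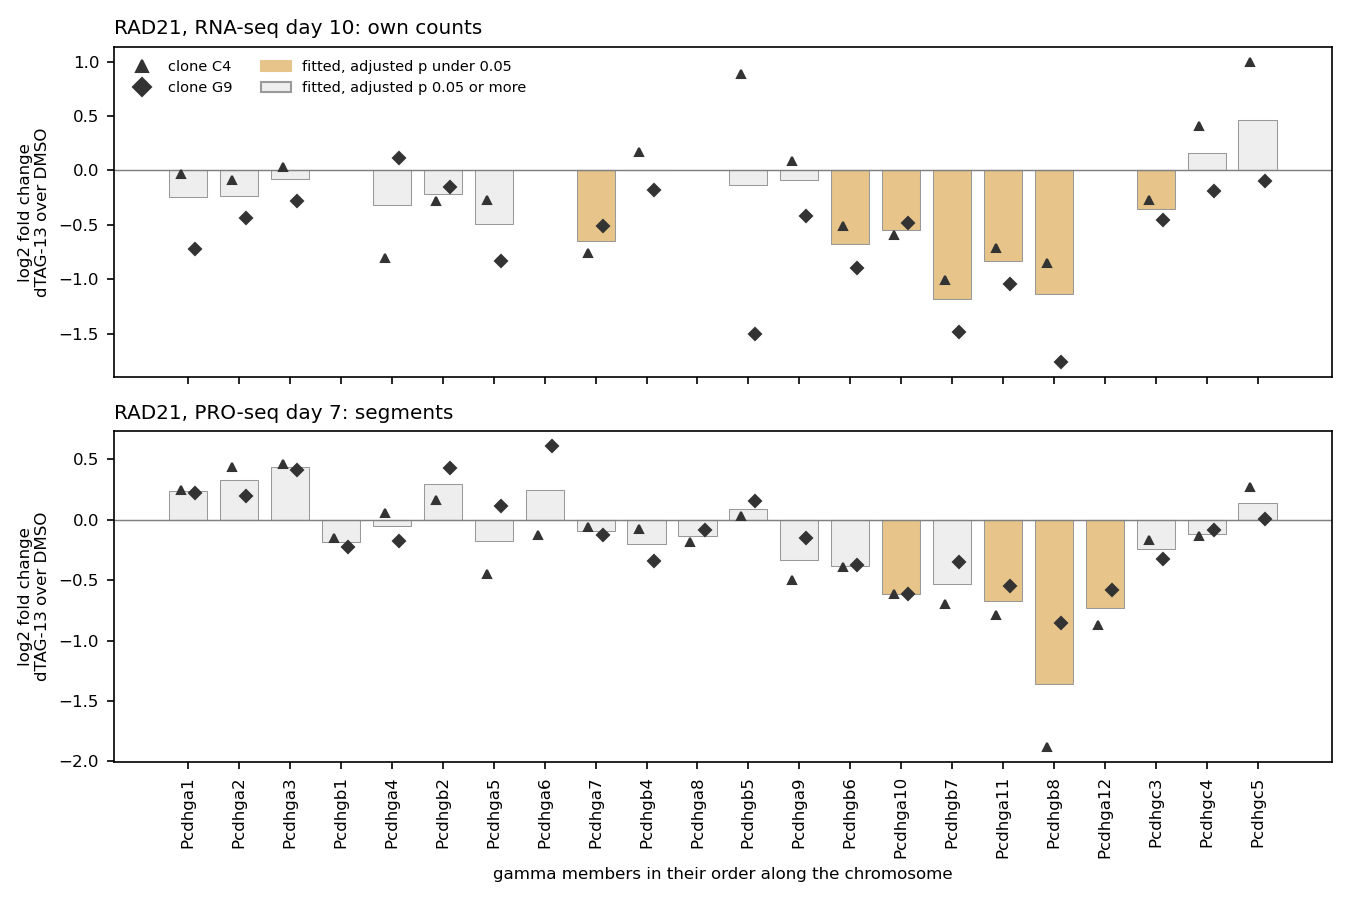
Log2 fold change, dTAG-13 over DMSO, of each gamma member in cluster order for RAD21 own RNA counts at day 10 (top) and PRO-seq segments at day 7 (bottom). Bars are the edgeR estimate, coloured where the adjusted p is under 0.05, and symbols the ratio within each clone. The coloured bars, 7 at the top and 4 at the bottom, all lie below 0, and members without a bar were not tested.

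Beta genes gave few PRO-seq counts. All 22 have a row, 6 passed the filter on low counts, and none was called. An untested beta row held at most 32 counts over the 4 libraries. The summed beta level was 6.98 and 8.04 CPM with dTAG-13, against 6.75 and 8.69 CPM with DMSO. Pcdhb22 had 0.215 CPM in C4 and 0.859 CPM in G9 with dTAG-13, against 0.801 CPM in C4 and 1.28 CPM in G9 with DMSO, from 5 to 28 counts. It was lower with dTAG-13 in each clone, and did not pass (log2 fold change -1.17 ± 0.56, adjusted p from edgeR 0.198). The first beta genes had log2 fold changes above 0 that did not pass, with 0.60 ± 0.48 for Pcdhb2, 0.66 ± 0.50 for Pcdhb3 and 0.75 ± 0.59 for Pcdhb4.

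Without the clone term no member and no segment was called, and the same held when DMSO of C4, dTAG-13 of C4, DMSO of G9 or dTAG-13 of G9 was left out. With DESeq2 the 6 member calls became 0 and the 6 segment calls 1. With scaling by library totals 1 member stayed under the threshold. Leaving out dTAG-13 of C4 moved Pcdha1 to 0.03 on the log2 scale and Pcdha7 to -0.12.

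In WAPL degron cells treated over days 4 to 7, gamma RNA rose, and neither alpha nor beta RNA passed the test. All 22 gamma rows were called higher, where 9.46% of the 14544 genes tested were called higher and 5.73% lower, with log2 fold changes from 0.46 to 0.53 and adjusted p from 0.00936 to 0.0126. As these rows share their counts, this is one measurement: the shared gamma count gave 0.51 ± 0.09 (adjusted p from edgeR 0.0112). Pcdhga1 had 123, 110 and 148 CPM with dTAG-13 in H7 replicate 1, H7 replicate 2 and H2, against 83.2, 79.6 and 101 CPM with DMSO in the same order. All 3 dTAG-13 libraries lay above all 3 DMSO libraries, with means of 127 ± 19.2 and 88.0 ± 11.6 CPM (SD, n = 3 each). Its log2 fold change was 0.53 ± 0.09, and those of Pcdhga2 and Pcdhgb2 were 0.52 ± 0.09 each. Of the C-types, Pcdhgc3 rose by 0.46 ± 0.09, Pcdhgc4 by 0.51 ± 0.09 and Pcdhgc5 by 0.53 ± 0.09.

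Within pairs, Pcdhga1 gave log2 ratios of 0.57 and 0.47 in the 2 replicates of H7 and 0.55 in H2. With 22 gamma calls from all libraries, 0 members were called without the clone term, 0 in the H7 libraries alone and 22 with replicate blocks, which called 15.4% of all genes higher. Leaving out DMSO replicate 2 of H7, DMSO of H2 or dTAG-13 of H2 left 0, and leaving out DMSO replicate 1 of H7 left 5. The fold change of Pcdhga1 then lay between 0.51 and 0.52 for the 3 omissions that left none.

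Alpha RNA was higher in each pair without passing the test. The smallest alpha count was 3.02, 3.73 and 3.85 CPM with dTAG-13 in H7 replicate 1, H7 replicate 2 and H2, against 2.09, 3.49 and 3.12 CPM with DMSO. These values come from 25 to 107 counts per library, and the groups overlap. The median log2 fold change of the 14 alpha rows was 0.33, against -0.01 over all genes tested, and the lowest adjusted p was 0.33. The shared alpha count had a 95% interval from -0.26 to 0.90, which includes the estimate for gamma. Pcdha12 had 0.37 ± 0.24, Pcdha5 0.38 ± 0.25, Pcdha10 0.34 ± 0.25, Pcdhac2 0.32 ± 0.23 and Pcdhac1 0.33 ± 0.25. Alpha counts per 100 gamma counts were 2.50, 3.51 and 2.73 with dTAG-13, against 2.58, 4.48 and 3.14 with DMSO. The dTAG-13 value was the lower one in each pair, while across pairs the groups overlapped. The exact two-sided permutation test, which did not use the pairs, gave p = 0.6 (n = 3 each, smallest possible 0.1).

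Beta RNA was near the floor. Of 22 beta rows, 2 were at 0 in every library and only Pcdhb22 passed the filter. Pcdhb22 had 0.464, 0.732 and 1.16 CPM with dTAG-13, against 0.835, 0.613 and 0.748 CPM with DMSO, from 6 to 30 counts. The groups overlap fully, and the log2 fold change was -0.01 ± 0.34, with a 95% interval from -0.80 to 0.78. Its sign flips with the scaling, to 0.02 with library totals. An untested beta row held at most 35 counts over the 6 libraries.

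Own counts were called for few gamma members. Of 15 tested, 2 were called higher and none lower, a share near the background, where 9.27% of all genes were called higher and 5.71% lower in that fit. With replicate blocks 3 were called, against 15.2% of all genes called higher, and no difference between members was tested. Pcdhgc5 had own counts of 1.24, 2.66 and 4.25 CPM with dTAG-13 in H7 replicate 1, H7 replicate 2 and H2, against 0.697, 0.756 and 0.875 CPM with DMSO. All dTAG-13 values lay above all DMSO values, with 16 to 76 own counts with dTAG-13 and 7 to 25 with DMSO. The log2 fold change was 1.70 ± 0.35 (adjusted p from edgeR 0.017).

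Pcdhga1 had own counts of 2.87, 3.95 and 7.10 CPM with dTAG-13, against 2.29, 1.84 and 1.87 CPM with DMSO, also without overlap. Its log2 fold change was 1.05 ± 0.28 (adjusted p from edgeR 0.0432). Pcdhga3 had 1.27 ± 0.39 and passed only with replicate blocks (adjusted p 0.0619 without them and 0.026 with them). The own count of Pcdhgc3 was 23.7, 32.3 and 36.7 CPM with dTAG-13, against 24.4, 26.4 and 24.6 CPM with DMSO, and its 0.28 ± 0.16 did not pass (adjusted p from edgeR 0.254). Pcdhga11 was the one with the lowest fold change, -0.44 ± 0.23 (adjusted p 0.238).

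In the H7 libraries alone neither was called, with an adjusted p from edgeR of 0.13 for Pcdhgc5 and 0.236 for Pcdhga1. DESeq2 and limma-voom each called 2. Leaving out DMSO replicate 1 of H7, dTAG-13 replicate 2 of H7, DMSO of H2 or dTAG-13 of H2 left no own count called, and leaving out DMSO replicate 2 of H7 left 1.

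**Figure D5:**
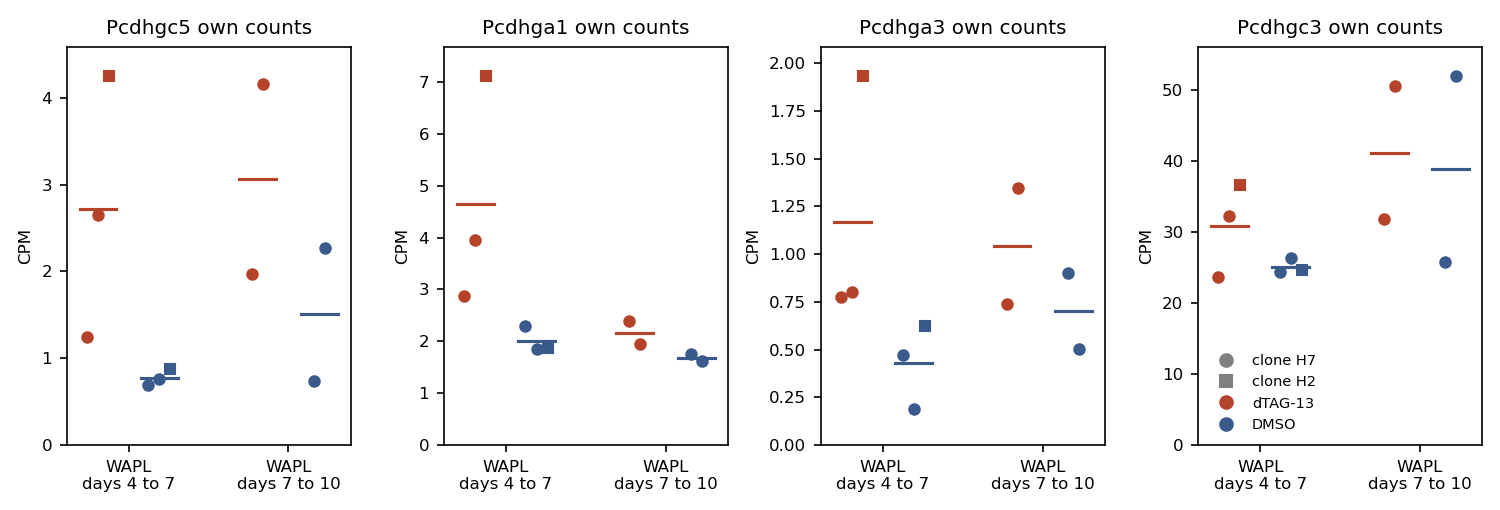
Own RNA counts in CPM of Pcdhgc5, Pcdhga1, Pcdhga3 and Pcdhgc3 in WAPL degron cells, dTAG-13 in red left of DMSO in blue, for days 4 to 7 and days 7 to 10. Points are libraries, symbols clones and bars group means. In days 4 to 7 the dTAG-13 libraries of Pcdhgc5 lie from 1.24 to 4.25 CPM, all above the DMSO libraries, and in days 7 to 10 the groups overlap.

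Over days 7 to 10, with only H7, no member passed, and neither did any of the 14110 genes tested (0% called, 926 genes at an unadjusted p under 0.05, none of them a member). DESeq2 and limma-voom called no member either, but a fit with replicate blocks did call members, as given in the closing section. No label says that the replicate number marks a shared culture or batch. The smallest gamma count was 134 and 122 CPM with dTAG-13 in replicates 1 and 2, against 99.2 and 108.1 CPM with DMSO. The groups did not overlap, and the shared count gave 0.32 ± 0.15, with a 95% interval from -0.06 to 0.70. Pcdhgc5 had 0.32 ± 0.15, Pcdhga2 0.32 ± 0.15, Pcdhgc4 0.31 ± 0.15, Pcdhga10 0.31 ± 0.15, Pcdhga11 0.29 ± 0.15 and Pcdhgc3 0.25 ± 0.18.

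The smallest alpha count was 3.70 and 3.53 CPM with dTAG-13, against 3.24 and 2.43 CPM with DMSO. The shared alpha count gave 0.37 ± 0.28, with a 95% interval from -0.36 to 1.09. Pcdha4 had 0.41 ± 0.29, Pcdha5 0.37 ± 0.28, Pcdha12 0.33 ± 0.25, Pcdha3 0.35 ± 0.27, Pcdhac1 0.35 ± 0.28 and Pcdhac2 0.32 ± 0.27. Pcdhb22 had 0.988 and 1.29 CPM with dTAG-13, against 1.70 and 1.62 CPM with DMSO, and -0.51 ± 0.33 did not pass. It was the only beta member with a row there.

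Of the own counts, Pcdhgc5 had 1.97 and 4.16 CPM with dTAG-13, against 0.741 and 2.27 CPM with DMSO. The groups overlap, and the 1.06 ± 0.64 did not pass (adjusted p from edgeR 0.864). Pcdhga2 had 0.72 ± 0.30 and Pcdhgc3 0.09 ± 0.41.

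The difference between the 2 windows was tested in 1 fit over all 10 WAPL libraries. No member was called and no gene of 14326 (0% called, 423 at an unadjusted p under 0.05), so the calls of days 4 to 7 are not shown to be absent later. DESeq2 was not run on this fit. Later minus earlier, Pcdhga1 had -0.21 ± 0.14, Pcdhgc3 -0.20 ± 0.17, Pcdha1 0.06 ± 0.38 and Pcdhb22 -0.48 ± 0.46. The sign for Pcdha1 flips when dTAG-13 replicate 1 of days 4 to 7 (-0.02), DMSO replicate 2 of days 4 to 7 (-0.19) or DMSO replicate 2 of days 7 to 10 (-0.16) is left out.

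Of the genes flanking the clusters on the chromosome, 1 of 20 tested fell and none rose over WAPL days 4 to 7, against 5.73% of all genes lower and 9.46% higher. At RAD21 day 10, 2 of 21 fell and 4 rose, against 8.89% of all genes lower and 9.83% higher. In PRO-seq 1 of 19 fell and 1 rose, against 4.66% of all genes lower and 5.90% higher. Pcdh1, a protocadherin outside the clusters on the same chromosome, fell in all 3. At RAD21 day 10 it had 42.3 CPM in C4 and 34.9 CPM in G9 with dTAG-13, against 94.0 CPM in C4 and 84.4 CPM in G9 with DMSO, a log2 fold change of -1.21 ± 0.06 (adjusted p from edgeR 9e-81). In PRO-seq it had 14.7 CPM in C4 and 15.8 CPM in G9 with dTAG-13, against 31.6 CPM in C4 and 18.5 CPM in G9 with DMSO, with -0.71 ± 0.16. Over WAPL days 4 to 7 it had 101, 99.6 and 94.8 CPM with dTAG-13, against 176, 171 and 189 CPM with DMSO, with -0.86 ± 0.09. In each set the groups did not overlap. Slc25a2, a mitochondrial carrier gene among the clusters, rose by 0.42 ± 0.13 in PRO-seq (adjusted p 0.0293), and Taf7, which encodes a subunit of the general transcription factor TFIID and lies nearby, rose by 0.27 ± 0.06 at RAD21 day 10.

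A pair of protocadherins far from the clusters had larger fold changes than any tested member row in the WAPL cells. Over WAPL days 4 to 7, Pcdh10 had 4.64, 3.70 and 9.09 CPM with dTAG-13, against 0.946, 0.424 and 0.997 CPM with DMSO (log2 fold change 2.67 ± 0.31, adjusted p from edgeR 0.00281). Pcdh19, an adhesion gene mutated in a human epilepsy, had 12.99, 19.6 and 32.0 CPM with dTAG-13, against 5.81, 5.52 and 4.86 CPM with DMSO (1.86 ± 0.26). Over days 7 to 10 edgeR did not call them, at 3.07 ± 0.52 and 2.06 ± 0.46, while DESeq2 did (adjusted p 2.21e-05 and 0.00352). In RAD21 PRO-seq both were called higher, Pcdh10 by 1.36 ± 0.22 and Pcdh19 by 1.28 ± 0.13, and Pcdh17 by 0.77 ± 0.14. At RAD21 day 10, Pcdh10 (0.07 ± 0.28) and Pcdh19 (0.18 ± 0.16) did not pass, Pcdh8 fell by 0.91 on the log2 scale and Pcdh18 rose by 0.55 ± 0.06. Over WAPL days 4 to 7, 2 of 9 non-clustered protocadherins tested rose and 1 fell, against 9.46% and 5.73% of all genes. At RAD21 day 10, 2 of 8 rose and 3 fell, against 9.83% and 8.89% of all genes. In PRO-seq 3 of 11 rose and 2 fell, against 5.90% and 4.66% of all genes.

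Of 30 genes that encode known regulators of the clusters, 2 fell and none rose over WAPL days 4 to 7, against 5.73% of all genes lower and 9.46% higher. The genes that fell were Dnmt3b, a DNA methyltransferase that methylates these promoters in the early embryo (-0.93 ± 0.11), and Ehmt2, an H3K9 methyltransferase (-0.46 ± 0.12). Ctcf (-0.26 ± 0.10, adjusted p from edgeR 0.114) and Smchd1, a silencer of these clusters in mouse (-0.22 ± 0.17), did not pass. In RAD21 RNA-seq, 4 of 30 fell and 3 rose, against 8.89% and 9.83% of all genes. Dnmt3b had -0.38 ± 0.08, Stag1, a cohesin subunit, 0.33 ± 0.06, Nipbl, the cohesin loader, 0.18 ± 0.06, and Ctcf -0.02 ± 0.07, of which the last did not pass. In PRO-seq 2 of 28 fell, with Dnmt3b at -0.78 ± 0.07, and 1 rose, Stag1 at 0.43 ± 0.06. Of all genes there, 4.66% were called lower and 5.90% higher. Of genes for protein partners, 1 of 14 rose and 2 fell over WAPL days 4 to 7, with Ptk2b, a kinase that protocadherins inhibit, at 0.69 ± 0.14. In RAD21 RNA-seq 1 of 14 rose and 2 fell, and in PRO-seq 1 of 13 rose and 2 fell. The shares of all genes called in each set are those given above for the regulators.

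Markers of other cell types moved with the groups, and since these are bulk samples, fewer cells of a type and less RNA per cell cannot be told apart. The shares of all genes called, against which the counts for each list are read, were 9.46% higher and 5.73% lower over WAPL days 4 to 7, 9.83% higher and 8.89% lower at RAD21 day 10, and 5.90% higher and 4.66% lower in PRO-seq. Over WAPL days 4 to 7, 10 of 14 fibroblast and feeder markers were called higher and 1 lower, with summed levels of 2178 to 2693 CPM with dTAG-13 against 1191 to 1700 CPM with DMSO. Of 14 neural markers 1 was higher and 3 lower, with sums of 497 to 606 CPM with dTAG-13 against 723 to 810 CPM with DMSO. Of 7 trophoblast markers 4 were higher, with sums of 1083 to 1384 CPM with dTAG-13 against 370 to 610 CPM with DMSO. At RAD21 day 10 the sums were 405 to 427 CPM with dTAG-13 against 508 to 512 CPM with DMSO for mesoderm and cardiac muscle markers, which did not overlap, 4201 to 4425 CPM with dTAG-13 against 3918 to 4330 CPM with DMSO for fibroblast markers, and 657 to 691 CPM with dTAG-13 against 688 to 737 CPM with DMSO for neural markers, where 1 of 13 fell. Of 8 pluripotency markers 6 fell at RAD21 day 10 and 6 in PRO-seq. Their sums at day 10 overlapped, at 810 to 1079 CPM with dTAG-13 against 984 to 1358 CPM with DMSO. In PRO-seq they were 376 to 527 CPM with dTAG-13 against 550 to 667 CPM with DMSO. In the PRO-seq set the blood markers Hbb-bh1 and Hba-x were at 0 in every library. No neural, fibroblast or pluripotency marker with a row was at 0 in all libraries of a set. Not every marker has a row: 13 neural markers have one at RAD21 day 10 and at WAPL days 7 to 10. In WAPL days 4 to 7 and in PRO-seq 18 do. The part of these cells in the protocadherin results was not tested. Of the remaining lists over WAPL days 4 to 7, mesoderm and cardiac muscle markers rose in 5 of 10 and fell in 1, endoderm markers rose in 1 of 4 and fell in 1, and endothelial (1 of 7) and blood markers (1 of 5) fell. In RAD21 RNA-seq mesoderm markers rose in 1 of 11 and fell in 2, endoderm markers rose in 1 of 6 and fell in 2, endothelial markers rose in 1 of 6 and fell in 2, blood markers fell in 2 of 6, and trophoblast markers rose in 2 of 7 and fell in 3. Fibroblast and feeder markers at RAD21 day 10 rose in 4 of 14 and fell in 3. In PRO-seq neural markers rose in 2 of 15 and fell in 3, and fibroblast markers rose in 1 of 12 and fell in 1. Endothelial markers there rose in 1 of 7 and fell in 1. Mesoderm (1 of 10), endoderm (2 of 5) and trophoblast markers (1 of 8) fell, and of 5 blood markers none was called. Hand1 is in both the mesoderm and the trophoblast list. Over WAPL days 7 to 10 no gene of any list was called by edgeR.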

How the data were processed

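The authors deposited gene-level read counts for the 3 RNA-seq sets. For PRO-seq the authors deposited expected counts, not all of them whole, which were rounded here. The submitters' processing notes name TopHat2, Novoalign, HOMER and the mouse build mm9 without saying which step used which, and no source gives the counting rule, the use of strand or the treatment of multi-mapping reads, so overlapping and antisense transcripts cannot be told apart. Of 94 samples, the 18 RNA-seq and PRO-seq libraries were used and 76 were not analysed here. Each table was fitted whole with edgeR 4.0.16 in R 4.3.3 (quasi-likelihood test, TMM, filterByExpr with a minimum count of 10), with Benjamini-Hochberg adjustment over all genes tested and a threshold of 0.05. Both RAD21 designs and that of WAPL days 4 to 7 included the clone. Each RAD21 design left 1 residual degree of freedom, WAPL days 4 to 7 left 3 and WAPL days 7 to 10 left 2. SE is the fold change over the root of F. DESeq2 1.42.0 and limma 3.58.1 were alternatives. A RefSeq table of another build gave only the order of members. Same-numbered WAPL libraries of days 4 to 7, which the titles pair by number, deviated together (r = 0.57, 0.59 and 0.68). Libraries of 1 clone did so too (0.76 in RAD21 RNA-seq, 0.78 in PRO-seq). Members are named, per cluster and comparison, by smallest p (up to 4), highest level (2) and as C-types; own counts and segments are named after their values were seen. Members and lists were chosen with earlier results of these data known. Floors cover counting error only. The functions were tested on simulated data.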

Additional observations from a re-analysis of the deposited data

Results flagged for a closer look

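The 2 RAD21 clones moved in opposite directions for 5 of the named values, a difference that was not tested, with 1 library per clone and group. Log2 ratios of dTAG-13 over DMSO were 1.00 in C4 and -0.094 in G9 for the own RNA counts of Pcdhgc5 at day 10, and -0.050 in C4 and 0.013 in G9 for Ctcf there. In PRO-seq at day 7 they were 1.38 in C4 and -0.12 in G9 for Pcdhb4, 0.20 in C4 and -0.040 in G9 for Pcdhgc3, and 0.24 in C4 and -0.0038 in G9 for Pcdhgc4. The PRO-seq values are of whole rows, not of segments.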

How the results depend on the processing

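Calls of members depended on the model terms more than on scaling or filters, and the cause was not tested. At WAPL days 4 to 7 the 22 member calls became 0 with no clone term and 0 in clone H7 alone, and 0 to 23 without 1 library; the 2 own-count calls became 0 at a mean count of at least 50, 1 with no clone term, 0 in clone H7 alone and 0 to 3 without 1 library. The replicate block kept the number at 22 there. At WAPL days 7 to 10, where only the replicate numbers link libraries (r = 0.85), the replicate block gave 22 member calls and 4 own-count calls in place of 0. Rows of a cluster share their counts, so these member calls are not separate measurements. The share of all genes called in that fit is not given here, so the calls cannot be read against it. At RAD21 day 10 the 17 member calls became 1 with DESeq2, 6 with limma-voom, 0 with no replicate block (no clone term) and 0 to 1 without 1 library; the 7 own-count calls became 0 with DESeq2, 0 with no replicate block and 0 without 1 library. In PRO-seq the 6 member calls became 1 with library totals, 0 with DESeq2, 0 with no replicate block and 0 without 1 library; the 6 segment calls became 1 with DESeq2, 0 with no replicate block and 0 without 1 library. Without 1 library the RAD21 fits have no clone term, by construction. The window difference stayed at 0 member calls in the settings run.

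Some log2 fold changes changed sign. Pcdhb22 at WAPL days 4 to 7 became 0.025 with library totals, 0.0032 with DESeq2, 0.0017 with the replicate block and 0.075 with no clone term, and ranged from -0.23 to 0.17 without 1 library. Over the fits without 1 library, own Pcdhgc3 at WAPL days 7 to 10 ranged from -0.33 to 0.67 and Ctcf at RAD21 day 10 from -0.10 to 0.067. In PRO-seq the ranges were -0.70 to 0.026 for Pcdha1, -0.70 to 0.027 for Pcdha2, -0.44 to 0.18 for Pcdhga9, -0.43 to 0.18 for Pcdhgb4, Pcdhga7 and Pcdhga8, -0.33 to 0.21 for Pcdhga1, -0.37 to 0.22 for Pcdhga2, -0.24 to 0.43 for Pcdhgc3, -0.20 to 0.46 for Pcdhgc4 and -0.19 to 0.50 for Pcdhgc5 and its segment. The window difference of Pcdha1 ranged from -0.19 to 0.25. Most beta rows and alpha own counts were too low to be tested.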
